A study of Homo sapiens with 6 samples.

Results

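The class I histone deacetylases are HDAC1, HDAC2, HDAC3 and HDAC8, one class of the zinc-dependent deacetylases, the enzyme family that I13 inhibits. The enzymes against which the study describes I13 as active are HDAC1, HDAC2, HDAC3 and the class IIb enzyme HDAC6, and HDAC8 is not among them. The genes were taken by symbol, through their Ensembl identifiers in GENCODE release 29, and all 4 were found among the 32364 genes of the table. All 4 also passed the filter on low values, a mean of at least 0.1 FPKM, which left 18726 genes for testing. The libraries came from Kasumi-1, a human line of acute myeloid leukemia whose cells hold the RUNX1-RUNX1T1 fusion gene. One group held 3 control libraries, from cells kept for 48 h with dimethyl sulfoxide, the solvent of I13 per the study's methods, and the other held 3 libraries from cells kept for 48 h with 0.5 µM I13. Both groups are the same cell line without any genetic change made for the study, at 1 dose and 1 time point. FPKM is the number of sequenced fragments on a gene per kb of its exons, scaled to the fragment total of the library. Whether the mRNA levels of class I changed with treatment, and which members the cells express most, were the questions asked of these genes.

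Histone deacetylases remove acetyl groups from lysines of histones and other proteins, and gene silencing by repressor complexes often depends on them. HDAC1 and HDAC2 are close relatives that form the catalytic core of the Sin3, NuRD, CoREST and MiDAC complexes. HDAC3 works in the NCoR complex, which the RUNX1-RUNX1T1 fusion protein recruits, and HDAC8 acts outside these complexes and removes an acetyl group from SMC3, a subunit of cohesin. An inhibitor of this kind binds the active site of the protein, whereas the values here are of mRNA.

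Between 15281052 and 17221345 fragments per library were recovered from the FPKM values. The markers of the cell line were high in every library, with MPO, a granule enzyme of myeloid cells, between 10241 and 12450 FPKM and RUNX1T1, which is part of the fusion, between 12.5 and 14.4 FPKM. The T cell marker CD3E was at no more than 0.106 FPKM, and the collagens COL1A1 and COL3A1 were listed at 0. EPCAM, fixed as an epithelial marker, lay between 20.8 and 26.5 FPKM, while KRT19, the other marker of that list, was at no more than 0.0258 FPKM. In a principal component analysis of 4133 genes, the first component (43.3% of the variance) placed control replicate 3 and I13 replicate 2 on one side and the other 4 libraries on the opposite side, and the second (20.5%) separated I13 from control. Values with and without this pair of libraries are therefore given. The study describes its experiments in general as independent, and its legend for the sequencing figure speaks of 3 independent experiments. The labels do not say whether these replicates came from separate cultures, and if they did not, the p-values measure only the spread between these samples.

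On GRCh38, HDAC1 (ENSG00000116478) lies at chr1:32292086-32333635 on the plus strand. HDAC2 (ENSG00000196591) lies at chr6:113933028-114011308, HDAC3 (ENSG00000171720) at chr5:141620876-141636870 and HDAC8 (ENSG00000147099) at chrX:72329516-72573199, all on the minus strand. The genes share the catalytic domain, and the 60 coding bases in which the reference transcripts of GENCODE 29 were most alike are shown to make plain how far fragments of one gene can be told from those of another. Capitals mark the 38 bases that were the same in all 4 genes, read 5′ to 3′ on the coding strand.
HDAC1: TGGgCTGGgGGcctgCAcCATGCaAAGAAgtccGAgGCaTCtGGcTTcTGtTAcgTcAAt
HDAC2: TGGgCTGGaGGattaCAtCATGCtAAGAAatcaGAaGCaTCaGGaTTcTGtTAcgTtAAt
HDAC3: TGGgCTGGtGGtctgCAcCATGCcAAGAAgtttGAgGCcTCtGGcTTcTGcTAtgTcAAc
HDAC8: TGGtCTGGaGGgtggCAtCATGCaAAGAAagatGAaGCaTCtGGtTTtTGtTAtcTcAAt
The stretch is in exon 5 of 14 in HDAC1 (chr1:32326986-32327045) and in exon 5 of 14 in HDAC2 (chr6:113956045-113956104). It spans exons 5 and 6 of 15 in HDAC3 (chr5:141629716-141629895) and exons 4 and 5 of 10 in HDAC8 (chrX:72495238-72567917). Against HDAC1, 48 of the 60 bases were the same in HDAC2, 51 in HDAC3 and 45 in HDAC8. Even here the genes differed at many positions. Over the whole coding sequence HDAC1 and HDAC2 were 75.9% identical, the most alike of the 6 pairs, with a longest identical run of 17 bases, and HDAC1 and HDAC3 shared the longest run of any pair, 18 bases. The processed pseudogenes of HDAC1 are closer, with 86.5% identity and a run of 30 bases for HDAC1P1 and 90.2% and a run of 58 bases for HDAC1P2. HDAC1P1 and HDAC1P2 are not among the 32364 genes with values, and how reads common to them and HDAC1 were assigned is uncertain.

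HDAC1 was the most abundant member. Its level was 55.8, 55.1 and 59.1 FPKM in control replicates 1 to 3 and 58.4, 60.1 and 61.9 FPKM in I13 replicates 1 to 3. The groups overlapped, since control replicate 3 was above I13 replicate 1. These values rested on 3682 to 3972 fragments per library. In RNA from whole cultures, a change in the number of expressing cells and a change per cell cannot be told apart. Over all 6 libraries the mean was 58.4 FPKM, which placed HDAC1 at rank 546 of 11931 protein-coding genes tested, above 95.4% of them.

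HDAC2, the paralog of HDAC1, was measured at 14.0, 14.2 and 12.5 FPKM in the control libraries and at 13.9, 12.2 and 13.7 FPKM in the I13 libraries. The low values in each group were those of control replicate 3 and I13 replicate 2, the pair of libraries that stood apart. HDAC2 rested on 3137 to 3772 fragments per library, about as many as HDAC1, because its exons sum to 15461 bases in the annotation and those of HDAC1 to 3963. Its mean of 13.4 FPKM was above that of 74.5% of protein-coding genes.

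HDAC3, the catalytic subunit of NCoR, was measured at 13.6, 12.9 and 14.5 FPKM in control and at 14.1, 14.9 and 14.0 FPKM in I13 libraries. Here the pair of libraries that stood apart held the highest value of each group, the opposite of HDAC2. The values rested on 990 to 1148 fragments per library, and the mean of 14.0 FPKM was above that of 75.7% of protein-coding genes.

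HDAC8, the member that works outside the repressor complexes, was the least abundant. It was measured at 3.74, 3.99 and 3.62 FPKM in control and at 4.54, 4.15 and 3.97 FPKM in I13 libraries. Control replicate 2 was just above I13 replicate 3, and the other values did not cross. The mean of 4.0 FPKM was above that of 41.4% of protein-coding genes. GENCODE 29 gives HDAC8 exons of 22986 bases, which did not return whole fragments from its FPKM values. The smallest length that did was 5379 bases, with 323 to 389 fragments per library. Among 8845 genes of known length with at least 100 fragments in every library, the smallest such length was the annotated one in 99.3%. A whole multiple of 5379 cannot be told apart from it, and would raise the fragments of HDAC8 by the same factor.

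**Figure D1:**
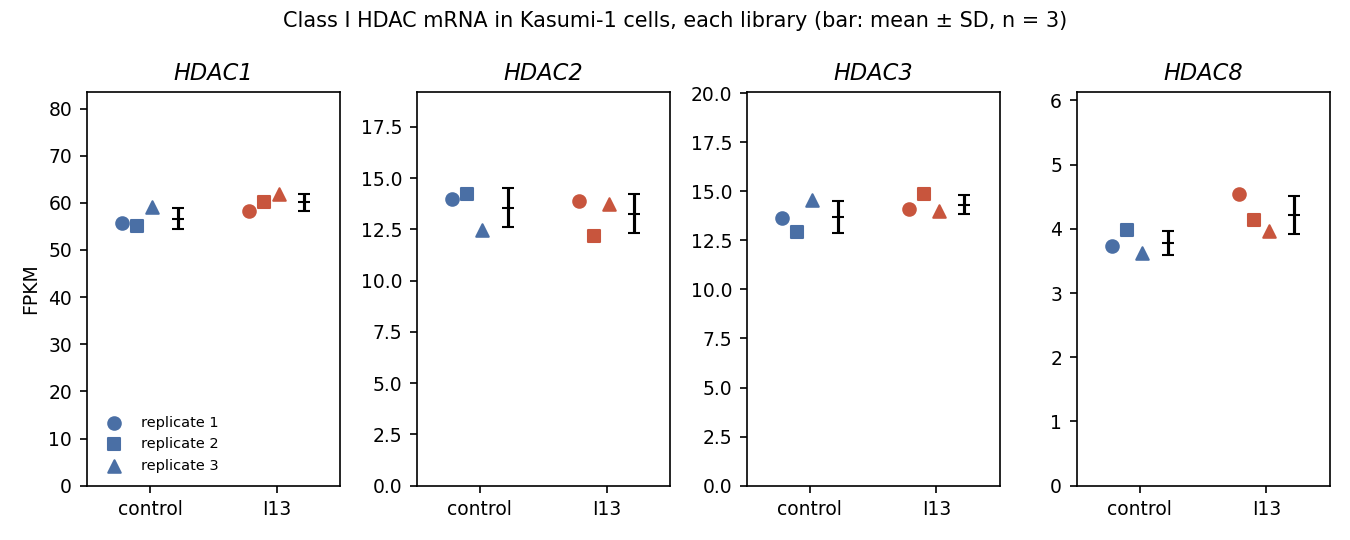
FPKM (vertical axis, linear from 0, a separate scale for each gene) of HDAC1, HDAC2, HDAC3 and HDAC8 in the 3 control (blue) and 3 I13 (red) libraries, with the replicate number given by the shape and the mean ± SD beside the points. The control and I13 points overlap for all 4 genes, and control replicate 3 and I13 replicate 2 are the low points of HDAC2.

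The order of the 4 levels was tested as the ratio of 2 genes inside each library, where depth cancels, with an exact sign-flip permutation test (two-sided) over 6 libraries and Benjamini-Hochberg adjustment over 6 pairs. As a geometric mean over libraries, HDAC1 was 4.36-fold above HDAC2, with a range over libraries of 3.87 to 4.94, and 4.17-fold above HDAC3, with a range of 4.04 to 4.42. It was 14.6-fold above HDAC8 (12.8 to 16.3). HDAC2 and HDAC3 in turn exceeded HDAC8, by 3.35-fold (2.93 to 3.74) and 3.51-fold (3.10 to 4.01). Each of these 5 differences had the same direction in 6 of 6 libraries. The exact sign-flip p was 0.03125, the smallest this test can give, and the adjusted p 0.0375. This p measures only how steady the direction was over libraries of both groups, and not the choice of length. In the 3 control libraries alone the 5 directions were the same. The exact sign-flip p was then 0.25 for each, and 3 libraries cannot give a lower one. HDAC2 and HDAC3 did not differ beyond their spread. Their ratio was 0.956, with a range of 0.818 to 1.1 that includes equality, HDAC2 was the higher in 2 of 6 libraries, and the exact permutation p was 0.375.

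The place of HDAC2 depended on the length its fragments were divided by. Fragments were first divided by the length of the transcript with the longest coding sequence, the longest of these where several tied. That transcript is 9874 bases for HDAC2 and 1959 for HDAC3. Per kb of this coding transcript, the level of HDAC2 was 21 in units of FPKM and that of HDAC3 was 33.1. HDAC2 was then below HDAC3 in 6 of 6 libraries (ratio 0.633, 0.542 to 0.729, exact permutation p of 0.03125). Per kb of coding sequence, 1464 bases for HDAC2 and 1284 for HDAC3, the order turned. All fragments of a gene, those on untranslated exons included, are divided by the coding length on this scale, and HDAC2 stood at 142 against 50.5 for HDAC3, 2.80-fold higher in 6 of 6 libraries (2.40 to 3.22, exact permutation p of 0.03125). HDAC1 was the highest under all 3 lengths, at 58.4 FPKM, 109 per kb of coding transcript and 160 per kb of coding sequence. Its margin over HDAC2 ran from 5.20-fold per kb of coding transcript to 1.13-fold per kb of coding sequence, the latter with a range over libraries of 1.01 to 1.28. HDAC8 had the lowest values under all 3, at 4.0 FPKM, 13.2 per kb of coding transcript and 17.2 per kb of coding sequence, where the last 2 values assume that its length in the files is 5379 bases and would rise with a whole multiple of it, which could place HDAC8 above HDAC2 per kb of coding transcript.

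**Figure D2:**
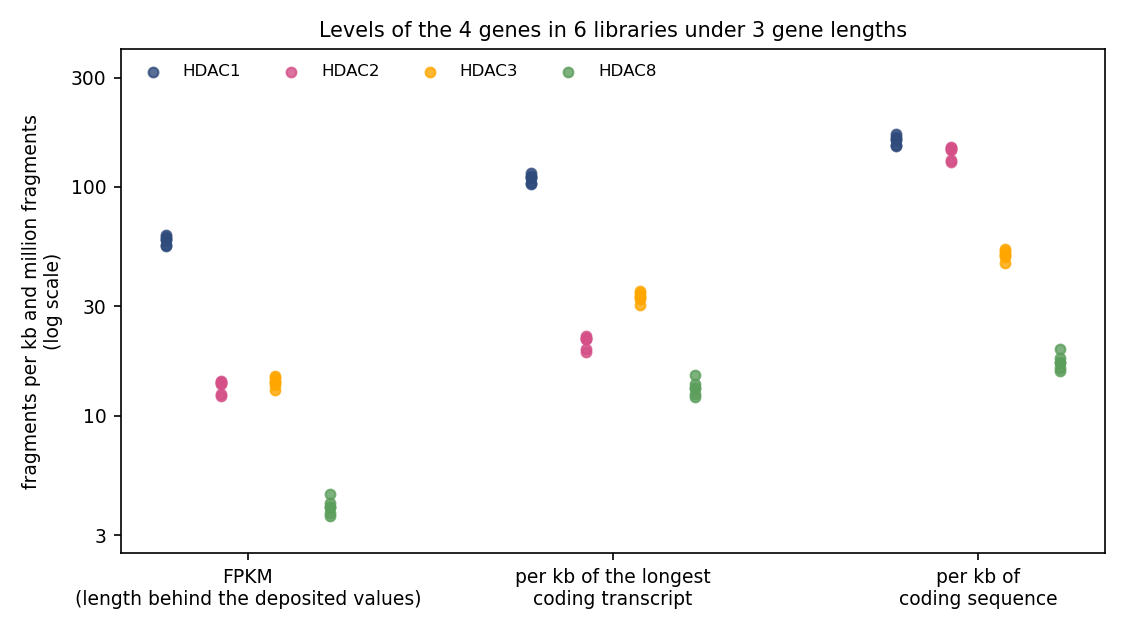
Level of each gene in each of the 6 libraries (points; vertical axis, fragments per kb scaled to the library total as in FPKM, log scale) with the fragments divided by the length behind the deposited FPKM, by the longest coding transcript or by the coding sequence. HDAC1 is highest throughout and HDAC8 lowest where its length is taken as 5379 bases, while HDAC2 lies level with HDAC3 at 13.4 and 14.0 FPKM, below it per kb of coding transcript and near HDAC1 per kb of coding sequence.

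No difference between I13 and control passed the test for any of the 4 genes. Calls needed an adjusted p under 0.05 and a log2 fold change of 0.58 or more in either direction, in limma on log2(FPKM + 0.1), a scale on which the change of low genes is understated. By this rule 0 of the 4 members were called, against 0 of 18726 genes tested (0.0%). At an unadjusted p under 0.05 it was also 0 of 4 by limma, where 963 of all genes (5.14%) passed and 445 (2.38%) also passed the fold threshold, and 0 of 4 by limma's voom on the recovered fragments, where 740 of 13811 genes (5.36%) passed. The control and I13 values did not overlap for 0 of the 4 members and for 9.52% of all genes tested, 4.88% higher and 4.64% lower in I13. The study itself reported genes both higher and lower in I13 at a corrected p and the same fold threshold. Its methods do not name the test, so its calls and those made here are not alike.

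HDAC1 went from 56.7 ± 2.15 FPKM (SD, n = 3) in control to 60.1 ± 1.75 FPKM (SD, n = 3) in I13 libraries. Its log2 fold change was 0.08, with a standard error of 0.048 and a 95% interval from -0.03 to 0.20 (limma p = 0.119, adjusted p = 0.983, exact permutation p = 0.2). In fold terms the interval ran from 0.981 to 1.15. The exact permutation test of the FPKM values cannot go below 0.1 with 3 against 3 libraries.

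HDAC2 was at 13.5 ± 0.955 FPKM (SD, n = 3) in control and 13.3 ± 0.950 FPKM (SD, n = 3) in I13 libraries, a log2 fold change of -0.03 (95% interval -0.22 to 0.16, limma p = 0.71, exact permutation p = 0.5). HDAC3 was at 13.7 ± 0.813 and 14.3 ± 0.479 FPKM (SD, n = 3 each), a log2 fold change of 0.06 (95% interval -0.08 to 0.21, limma p = 0.34, exact permutation p = 0.4). HDAC8 had the largest difference of the 4, from 3.78 ± 0.186 to 4.22 ± 0.295 FPKM (SD, n = 3 each). Its log2 fold change was 0.15, with a 95% interval from -0.05 to 0.36 (limma p = 0.126, exact permutation p = 0.2), and in fold terms 1.11 with an interval of 0.963 to 1.28. The adjusted limma p of each of these 3 genes was at least 0.983. The 4 intervals lay inside 0.58 in both directions, so a change of the size the study's threshold asks for was outside the 95% interval of each gene, while a smaller one was not.

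**Figure D3:**
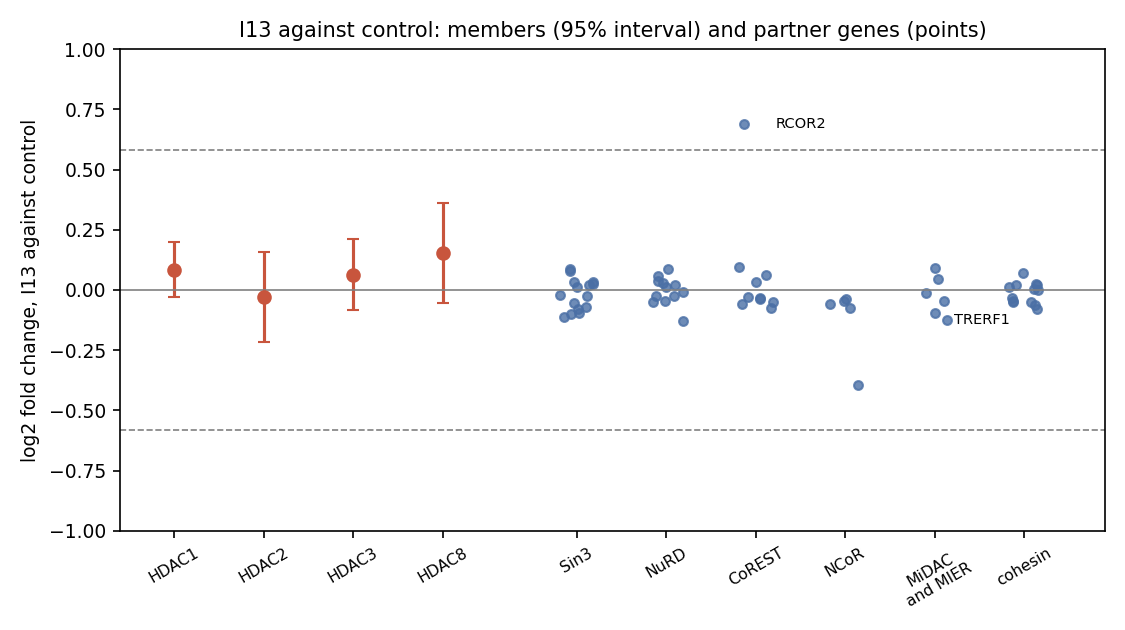
Log2 fold change of I13 against control on the log2(FPKM + 0.1) scale (vertical axis) for the 4 class I genes, with bars for the 95% interval from limma, and for the tested genes of their complexes and of cohesin as points without intervals. Dashed lines mark a log2 fold change of 0.58 in either direction, and the 4 intervals lie between them, from -0.22 for HDAC2 at the lowest to 0.36 for HDAC8 at the highest.

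The members were also compared with each other inside a library, which needs no scaling between libraries. HDAC1/HDAC2 was 4.0, 3.87 and 4.75 in control and 4.21, 4.94 and 4.5 in I13 libraries, and the groups overlapped. The ratio with the largest difference was HDAC2/HDAC8, with a geometric mean of 3.58 in control and 3.14 in I13 libraries, a log2 change of -0.19 (exact permutation p = 0.2). The log2 changes of the other ratios lay between -0.10 for HDAC2/HDAC3 and 0.12 for HDAC1/HDAC2. The exact permutation test gave no p under 0.2 for the 6 ratios, and each adjusted p was 0.7.

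HDAC2 differed more between the pair of libraries that stood apart and the rest than between I13 and control. It was 12.2 to 12.5 FPKM in control replicate 3 and I13 replicate 2 and 13.7 to 14.2 FPKM in the other 4 libraries, a difference of -0.18 on the log2 scale against -0.03 between I13 and control. HDAC3 was 14.5 to 14.9 FPKM in the pair and 12.9 to 14.1 FPKM in the other 4. HDAC1 and HDAC8 in the pair lay inside or across the range of the other 4. These are descriptions without a test, as the pair was recognised in the same data. Inside the pair I13 differed from control by 0.02 for HDAC1, -0.03 for HDAC2, 0.03 for HDAC3 and 0.19 for HDAC8 on the log2 scale. In the other 4 libraries alone the log2 fold changes were 0.12, -0.03, 0.08 and 0.13, and none was called (for HDAC1, adjusted p = 0.582 in limma).

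**Figure D4:**
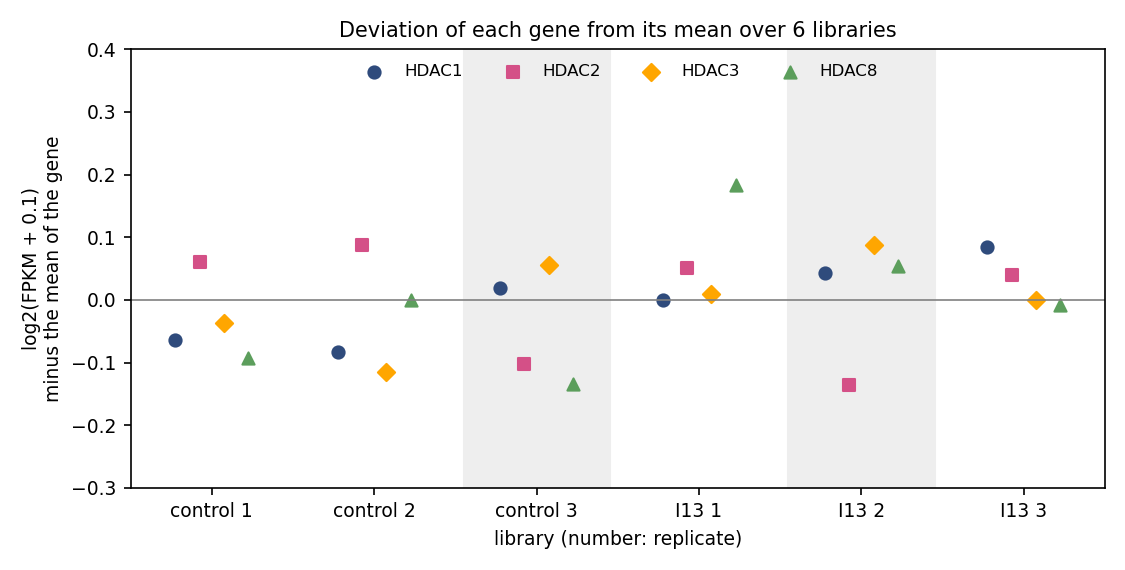
Deviation of each gene from its own mean over the 6 libraries on the log2(FPKM + 0.1) scale (vertical axis), by library, with control replicate 3 and I13 replicate 2 shaded. HDAC2 (squares) is below 0 in the shaded libraries and above 0 in the other 4, HDAC3 (diamonds) is at its highest in the shaded ones, and HDAC1 (circles) and HDAC8 (triangles) follow neither.

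The spread of HDAC2 inside the groups was well above counting noise. A chi-square of its fragments inside the groups, divided by its degrees of freedom, was 17.3, where counting noise alone gives about 1. The same value was 4.29 for HDAC1, 2.49 for HDAC3 and 1.28 for HDAC8. Over 13811 genes, the chi-square per gene between 2 libraries of a group was between 3.09 and 8.23, so no 2 libraries agreed within sampling noise. For HDAC8 counting was a larger part of the error, with a coefficient of variation from counting of 5.31% against 4.91% between control libraries and 6.99% between I13 libraries. The chi-square and the counting error of HDAC8 assume a length of 5379 bases. A whole multiple of it would raise the chi-square and lower the counting error.

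Of 4 genes that overlap a member, 3 had values, and these were of few fragments. HDAC2-AS2, an antisense gene on the strand opposite HDAC2, was at 2 to 10 fragments per library (mean 0.0515 FPKM, exact permutation p = 0.7). AC008781.1, antisense to HDAC3, had 0 to 7 fragments, and RNU2-68P inside HDAC8 had 0 to 1. AL133500.1, a protein-coding gene that overlaps HDAC8 on the same strand, had no values, and strand does not separate its reads from those of HDAC8. The library kit keeps the strand, but whether counting used it is not given.

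In FPKM, the 4 genes held the larger share of the summed deacetylase level, and the share under other gene lengths was not computed. Their summed level was 86.2 to 93.6 FPKM per library, 58.6% to 60.8% of the sum over the 11 HDAC genes and the 7 sirtuins, which are NAD-dependent deacetylases that inhibitors of this kind do not block. The sum did not overlap between groups, at 87.1, 86.2 and 89.7 FPKM in control and 90.8, 91.2 and 93.6 FPKM in I13 libraries. Nor did their share, at 59.4%, 58.7% and 58.6% in control and 60.6%, 60.3% and 60.8% in I13 libraries. HDAC1 alone accounted for 37.5% to 40.2%, with 37.5% to 38.6% in control and 38.9% to 40.2% in I13 libraries. Sum and shares were not tested, and 4.88% of single genes tested were higher in I13 without overlap. The class IIa genes HDAC4, HDAC5, HDAC7 and HDAC9 summed to 13.4 to 15.4 FPKM, the class IIb genes HDAC6 and HDAC10 to 5.57 to 6.90 FPKM, and HDAC11, the only class IV gene, was at 0.310 to 0.526 FPKM. The sirtuins together were at 38.3 to 40.5 FPKM. The class IIa sum also did not overlap between groups, at 14.6 to 15.4 FPKM in control and 13.4 to 14.4 FPKM in I13 libraries. Nor did the class IIb sum, at 5.92 to 6.90 FPKM in control and 5.57 to 5.88 FPKM in I13 libraries. Both sums were lower in I13 libraries and were not tested. HDAC11 and the summed sirtuins overlapped between groups. Of the 7 other HDAC genes and the 7 sirtuins, 0 passed either the adjusted or the unadjusted p in limma. Over all genes tested the shares were 0.0% and 5.14%. HDAC6, a mainly cytoplasmic deacetylase of tubulin, was at 6.16 ± 0.491 FPKM in control and 5.65 ± 0.147 FPKM in I13 libraries (SD, n = 3 each), a log2 fold change of -0.12 (limma p = 0.167, exact permutation p = 0.1). HDAC9 was at 0.590 and 0.413 FPKM (log2 fold change -0.45, limma p = 0.107, exact permutation p = 0.1). These were the 2 HDAC genes outside class I whose groups did not overlap, both lower in I13 libraries, where 4.64% of all genes were lower without overlap.

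Partners of the class I enzymes were examined through 60 listed genes, which are subunits of their complexes and 13 genes of cohesin and its regulation, and 59 passed the filter on low values. GPS2 did not, with 2 fragments at most in any library. None was called by limma or by voom, where 0.0% and 0.029% of all genes were. At an unadjusted p under 0.05, 1 of 59 was higher and 1 lower in I13 libraries, against 2.55% and 2.59% of all genes. The log2 fold change was above 0 for 25 and below 0 for 34, with a median of -0.03, and over all genes tested 51.8% were above 0.

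Of the shared HDAC1 and HDAC2 complexes, the 15 Sin3 subunits had 7 above 0 and 8 below, the 12 NuRD subunits 6 and 6, and the 10 CoREST subunits 4 and 6. The most abundant were the histone-binding RBBP4 at 27.2 FPKM in Sin3, the chromatin remodeler CHD4 at 69.0 FPKM in NuRD, and the lysine demethylase KDM1A at 51.1 FPKM in CoREST. Of the 6 MiDAC and MIER subunits 2 were above 0 and 4 below, with DNTTIP1 the most abundant at 20.4 FPKM. The 5 tested NCoR subunits, the partners of HDAC3, were all below 0, at a median of -0.06 on the log2 scale, with no p under 0.05. The 13 cohesin genes, around the HDAC8 substrate SMC3, had 7 above 0 and 6 below, with a median of 0.002 and SMC1A the most abundant at 29.4 FPKM.

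RCOR2, a CoREST scaffold protein, was the listed gene with the lowest p. It was at 1.06, 0.894 and 0.816 FPKM in control and at 1.49, 1.71 and 1.43 FPKM in I13 libraries, so the groups did not overlap. The log2 fold change was 0.69 (95% interval 0.32 to 1.06), with a limma p = 0.00318, an adjusted p of 0.669 and an exact permutation p of 0.1, and it rested on 37 to 78 fragments per library. TRERF1, a MiDAC subunit, was at 13.5, 13.8 and 13.5 FPKM in control and 12.4, 12.3 and 12.6 FPKM in I13 libraries. Its log2 fold change was -0.13 (95% interval -0.24 to -0.01), with a limma p = 0.0357, an adjusted p of 0.947 and an exact permutation p of 0.1. Neither passed the adjusted p.

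Genes whose values followed each member across the 6 libraries were taken by the smallest SD of the log2 ratio of the 2 genes, among 11517 genes with a mean of at least 1 FPKM. This is a description over 6 libraries that share their depth and the pair that stood apart, and carries no p. As the lowest SDs of 11517 genes, those listed are small by selection. Counting noise alone gives HDAC3 a coefficient of variation of 3.06%, more spread than an SD of 0.0146 on the log2 scale. A shared pattern with a member is therefore not shown. For HDAC1 they were SPCS2 (SD 0.0083), REEP6 (0.0143) and AIFM1 (0.0219), where the median gene had 0.135. For HDAC2 they were NUCKS1 (0.0129) and LRRC8B (0.0140). For HDAC3 they were PSMB5 (0.0146), TMEM219 (0.0150) and CNOT9 (0.0158), and for HDAC8 CENPH (0.0196), MTURN (0.0246) and TMEM97 (0.0253). Among the members, HDAC1 and HDAC3 kept the steadiest ratio, with an SD of 0.0493, while HDAC1 and HDAC2, the close paralogs, had 0.139, about that of the median gene.

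The promoters of the most and the least abundant member are shown because the 2 ends of the order differ in base composition. They are RefSeq sequences on GRCh38.p14 from 250 bases before to 50 after the start. Capitals mark matches, in either orientation, to the core of the GC box, spelled GGGCGG. They also mark matches in either orientation to the CCAAT box, spelled CCAAT. HDAC1 is at chr1:32291833-32292132 on the plus strand and HDAC8 at chrX:72572794-72573093 on the minus strand.
HDAC1: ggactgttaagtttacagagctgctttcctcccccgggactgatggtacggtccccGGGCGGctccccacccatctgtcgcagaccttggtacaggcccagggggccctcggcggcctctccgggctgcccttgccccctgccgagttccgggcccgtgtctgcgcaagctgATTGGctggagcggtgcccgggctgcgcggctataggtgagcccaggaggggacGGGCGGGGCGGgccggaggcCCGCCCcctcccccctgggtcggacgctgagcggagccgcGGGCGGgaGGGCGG
HDAC8: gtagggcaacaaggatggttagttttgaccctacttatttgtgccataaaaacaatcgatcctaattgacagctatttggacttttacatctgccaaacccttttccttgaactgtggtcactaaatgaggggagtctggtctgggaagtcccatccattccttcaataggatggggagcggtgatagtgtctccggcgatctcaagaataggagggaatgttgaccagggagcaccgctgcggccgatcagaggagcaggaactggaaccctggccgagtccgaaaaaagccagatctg
The HDAC1 window held 6 GC box matches, of which 2 overlap by a base, 1 CCAAT match and 28 CpG dinucleotides, with a GC content of 73.7%. The HDAC8 window held neither motif and 9 CpG, with a GC content of 49.3%. The windows of HDAC2 and HDAC3 held 0 and 3 GC box matches, 24 and 31 CpG and no CCAAT match, with a GC content of 64% and 74.0%. Of 35116 promoters of this length 45.0% held a GC box match and 34.6% a CCAAT match, and the median was 14 CpG and a GC content of 58.7%. The E-box CACGTG, present in 7.26% of promoters, was in none of the 4 windows. These matches describe the letters of the windows and were not tested against the levels.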

How the data were processed

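Poly(A) RNA libraries of Kasumi-1 cells, 3 control and 3 I13, were grouped by the sample labels. The deposited file is 1 table, made by the authors, that holds FPKM for each gene in each library. The submitters' processing notes name Trimmomatic, HISAT2, Cufflinks and HTSeq and the build hg38; versions, annotation release and the strand setting of counting were not given in the sources that were read. FPKM values were used as deposited, without further scaling.

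The members and lists were chosen with earlier results of these data known. Fragments were recovered with exon lengths from GENCODE 29, and 25773 of 27002 genes with a length (95.4%) were whole in all 6 libraries within 0.01 fragments. I13 was compared with control in R 4.3.3 by limma 3.58.1 with a variance trend on log2(FPKM + 0.1), over genes averaging 0.1 FPKM or more, with Benjamini-Hochberg adjustment. A call needed an adjusted p under 0.05 and a log2 fold change of 0.58 or more in either direction. The scripts were tested on simulated data. Single values were compared by exact permutation tests (SciPy 1.17.1). The alternatives were other pseudocounts, filters, scalings, variance models and lengths, voom on fragments with a mean of at least 10, a replicate block, a term for control replicate 3 and I13 replicate 2, and each library left out.

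The genes named were the 4 members, their pseudogenes and antisense genes, the other HDAC genes, listed partner genes at an unadjusted p under 0.05, the most abundant gene of each partner list, and the 3 genes most alike to each member. Other genes were named after their values were seen. Some single genes that the rule covers are not reported here. Replicate numbers were not said to mark a shared culture, and the deviations of same-numbered libraries correlated at 0.32, -0.379 and -0.297, so the numbers were not taken as pairs.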

Additional observations from a re-analysis of the deposited data

How the results depend on the processing

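No member and no listed partner gene was called under any of the alternatives tried, which include 3 tests on other variance models or on recovered fragments, 2 scalings, 2 pseudocounts, 2 filters and each library left out. Across them the log2 fold change of HDAC1 ran from 0.06 to 0.12, that of HDAC3 from 0.02 to 0.11 and that of HDAC8 from 0.10 to 0.19. Over all genes, 26 were called without a filter, 9 by limma without a trend and 4 by voom, against 0 in the fit reported. HDAC1 passed the unadjusted p once, without control replicate 3 (log2 fold change 0.12, adjusted p = 0.734 in limma). HDAC2 had no stable direction: with single libraries left out it ran from -0.090 to 0.030, and turned positive without control replicate 2 (0.0054) and without I13 replicate 2 (0.030). With the replicate number as a block the unadjusted limma p was 0.162 for HDAC1, 0.749 for HDAC2, 0.439 for HDAC3 and 0.179 for HDAC8, and the block changed no call. The mean log2 ratio of the HDAC2 to the HDAC3 level was -0.06 in FPKM, -0.66 per kb of coding transcript and 1.49 per kb of coding sequence. With single libraries left out, the log2 change of HDAC1/HDAC3 ran from -0.017 to 0.048, turning without I13 replicate 3 (-0.017), and that of HDAC1/HDAC8 from -0.14 to 0.0046, turning without I13 replicate 1 (0.0046). The other ratio changes kept their sign but not their size, from 0.055 to 0.21 for HDAC1/HDAC2, -0.20 to -0.0073 for HDAC2/HDAC3, -0.17 to -0.017 for HDAC3/HDAC8 and -0.26 to -0.14 for HDAC2/HDAC8. The cause was not tested. The level ratios kept their directions with each library left out, although the exact test on 5 libraries cannot reach 0.05. The log2 fold change of RCOR2 ran from 0.40 to 0.78, with 0.418 as its lowest adjusted p. HDAC8, at 323 fragments or more, is the member limited most by depth, and its length in the files is inferred.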

Other observations

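Genes that inhibitors of histone deacetylases often raise were looked at beside the members, as a list of 4 written from general knowledge: CDKN1A, a brake on the cell cycle, H1F0, a linker histone of resting cells, TXNIP, an inhibitor of thioredoxin, and GSN, an actin-severing protein. None was called. GSN was at 51.4 ± 0.974 FPKM in control and 41.8 ± 3.13 FPKM in I13 libraries (SD, n = 3 each), a log2 fold change of -0.30 (limma p = 0.00162, adjusted p = 0.540, exact permutation p = 0.1, voom adjusted p = 0.0728). H1F0 was at 14.2 ± 1.23 and 12.0 ± 0.315 FPKM (log2 fold change -0.24, limma p = 0.0138, exact permutation p = 0.1) and TXNIP at 68.6 ± 3.14 and 60.7 ± 4.66 FPKM (log2 fold change -0.18, limma p = 0.0321, exact permutation p = 0.1). For these 3 the I13 values lay below all control values, where 4.64% of all genes tested did so. The direction was lower in I13 libraries, and 2.59% of all genes tested were lower at an unadjusted limma p under 0.05. In limma 0 of 18726 genes were called, so the absence of a call does not set this list apart. The log2 fold change of CDKN1A was 0.21. The list of 4 was read after results of these data were known, and its 3 lower genes failed the adjusted p. By Western blotting, a measure of protein, the study reports more acetylated histone H3 in Kasumi-1 cells with I13, at a later time than these libraries.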
